A study of Mus musculus with 26 samples.

Results

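The high mobility group genes code for abundant small proteins that bind chromatin without being histones. The account covers 9 of them, Hmga1, Hmga2, Hmgb1, Hmgb2, Hmgb3, Hmgn1, Hmgn2, Hmgn3 and Hmgn5, taken by symbol from the 24091 genes of the read count table. All 9 were among the 13379 genes that passed the filter on low counts. They were chosen by measured values, namely the low Hmgn2 counts in the EC KO group and the difference of Hmga2 between the wild-type groups. Comparisons of EC KO with a wild-type group and of the wild-type groups with each other are therefore described, and not tested, for these 9 genes.

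As background, HMGA proteins hold AT-hooks, which grip the minor groove of AT-rich DNA and help assemble transcription factor complexes. HMGB proteins carry HMG boxes, which bend DNA with little regard to sequence, and HMGB1 can also leave the cell and act as an alarm signal. HMGN proteins bind the nucleosome itself and counteract the compaction that linker histones bring about. HMGA2 is known as a fetal and self-renewal factor of haematopoietic stem cells that is held down by the let-7 miRNAs, whose maturation LIN28 proteins block.

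RNA was sequenced from LSK cells (lineage-negative, Sca-1-positive, c-Kit-positive bone marrow cells, which hold the stem and multipotent progenitor cells). The mice, of strain C57BL/6, all carried SCLtTA/BCR-ABL, an inducible transgene that gives a disease like chronic myeloid leukaemia (CML), and the study compared forms of Spred1 loss, a gene for an inhibitor of RAS-ERK signalling. The 26 libraries form 5 groups. Spred1 wt (5 libraries) is the control of global KO (6 libraries, Spred1 knocked out in all cells). HSC wt and HSC KO (5 libraries each) were both given 7 doses of 250 µg poly(I:C), one every 2 days, to switch on Mx1-cre, which deletes Spred1 in HSC KO and is active in other interferon-responsive cells as well as stem cells. EC KO (5 libraries) has Spred1 deleted in endothelial cells by a Cre whose driver the labels do not name. Its own control, EC wt, was not analysed here, and whether groups other than HSC wt and HSC KO received poly(I:C) is not stated. Each library is read as 1 mouse.

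The control groups held 114 CPM of Spred1 ± 20.7 (Spred1 wt, SD, n = 5) and 104 ± 4.9 (HSC wt, n = 5), where CPM is the read count scaled to library size. The level was 32.7 CPM ± 7.36 (n = 6) after global knockout, 35.4 ± 7.29 (n = 5) with HSC KO, and 70.4 ± 11.4 (n = 5) with the endothelial knockout. Libraries held 14816071 to 26714325 counts. The defining marker Kit (c-Kit) averaged 516 CPM in EC KO and 829 to 986 CPM in the other 4 groups, and Ly6a (Sca-1) averaged 55.8 to 65 CPM. Summed transcripts of 8 mast cell and basophil genes, with none of the 8 at 0, had a median of 8490 CPM in Spred1 wt (range 2300 to 14900) and 2920 CPM in EC KO (range 1720 to 4620). Those medians were 2930 CPM in global KO (range 1360 to 12100), 4510 in HSC wt (range 3130 to 6090) and 3590 in HSC KO (range 1550 to 11100). Xist transcripts marked 2 libraries of HSC wt, 3 of HSC KO and 2 of EC KO, and 0 of Spred1 wt and global KO. In bulk RNA, fewer cells of a type and less RNA per cell cannot be told apart.

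Compared per length, Hmgn2 was the most abundant of the 9, with a median of 379 CPM per kilobase over the 26 libraries (range 182 to 441). Hmgb2 (median 202 CPM per kilobase, range 159 to 291), Hmgb1 (167, range 140 to 185) and Hmgn1 (129, range 105 to 172) came next, and each overlaps its neighbour in this order, Hmgn2 and Hmgb2 only through EC KO. Hmga1 (78.2 CPM per kilobase, range 60.5 to 101), Hmgn5 (57.3, range 39.0 to 78.3) and Hmgb3 (46.7, range 36.4 to 58.6) followed, and here too each overlaps the next in order, while Hmga1 and Hmgb3 do not overlap. Hmgn3 stood at 11.8 CPM per kilobase (range 7.89 to 21.9), clear of Hmgb3 above it and Hmga2 below it. Hmga2 was the lowest at 1.33 CPM per kilobase (range 0.476 to 2.37), with 53 to 408 reads per library, and spanned 4.98-fold between its lowest and highest library. Summed per length, the 4 HMGN genes gave 441 CPM per kilobase ± 24.2 (SD, n = 5) in EC KO and means of 555 to 596 in the other groups, while the 3 HMGB genes gave 451 ± 43.9 in EC KO and means of 399 to 436 elsewhere.

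**Figure D1:**
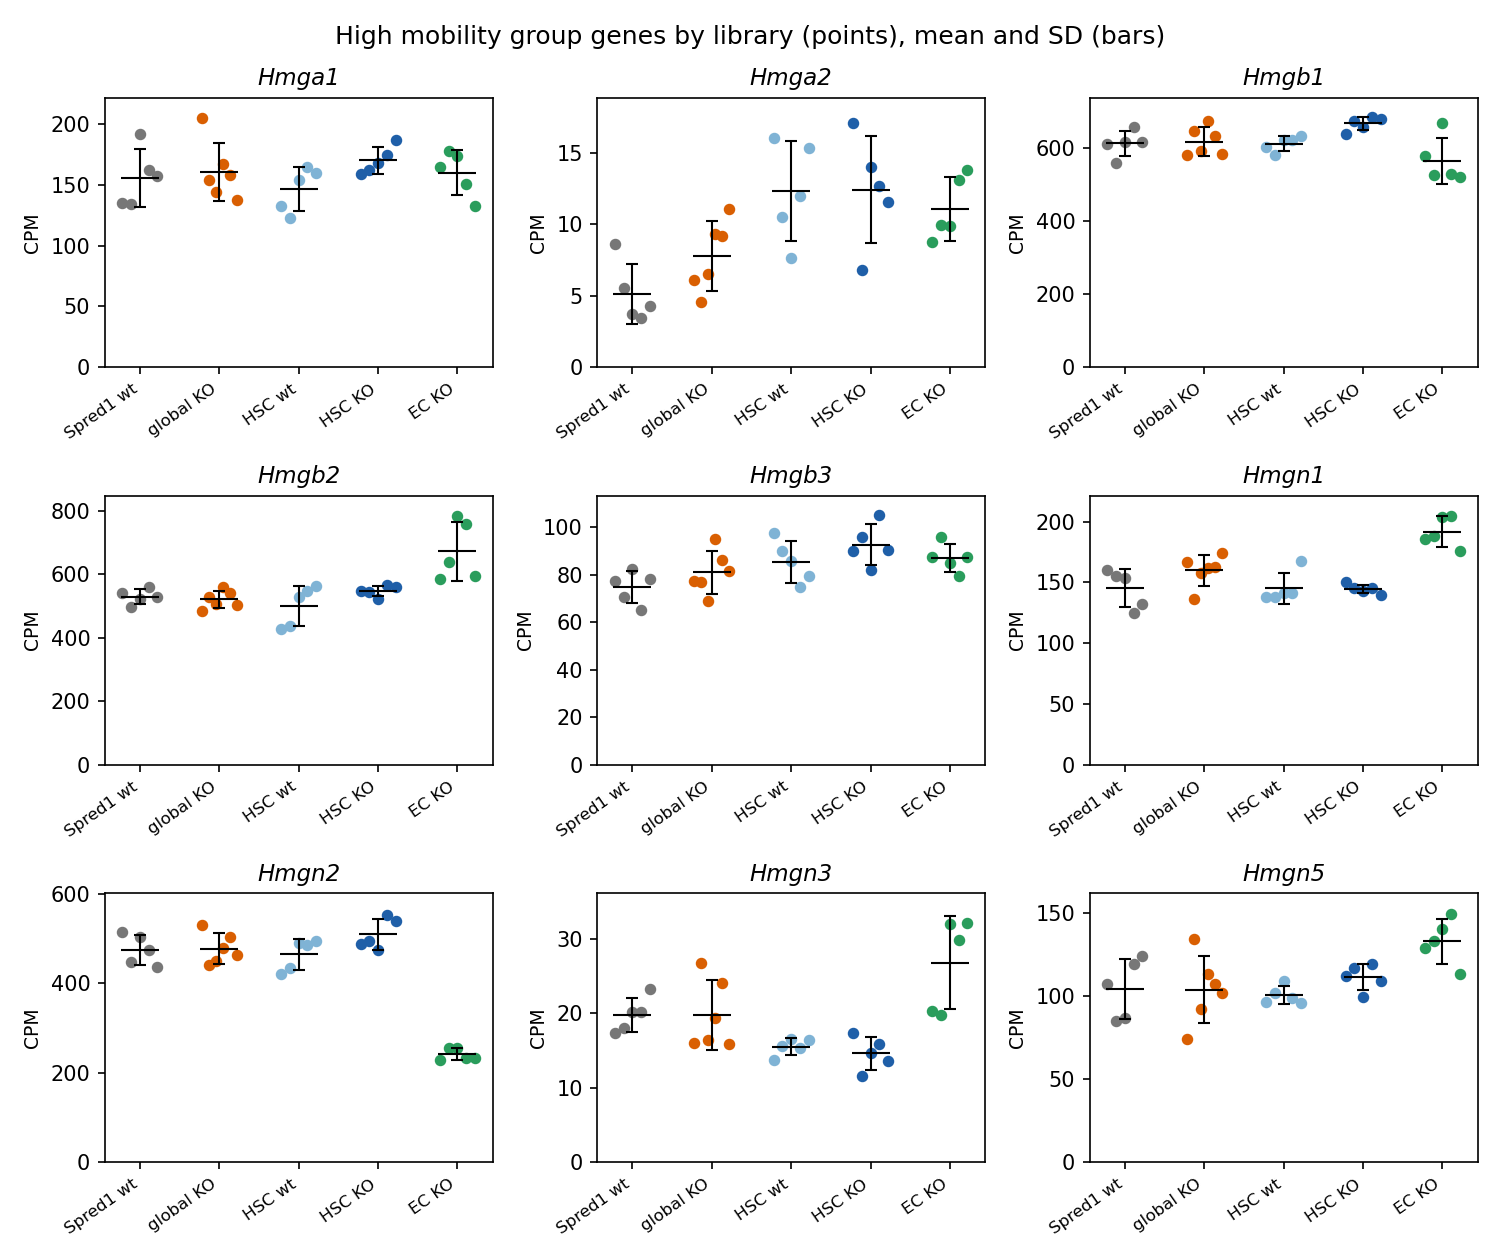
Level in CPM (vertical axis, from 0, scaled per gene) of each of the 9 genes in every library (points), by group, with the group mean and SD as bars. The 5 EC KO libraries lie at 229 to 256 CPM for Hmgn2, below the 421 to 552 CPM of the other 21, and Hmga2 is lowest in Spred1 wt.

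Hmgn2 codes for the nucleosome-binding protein HMGN2. Its gene lies at chr4:133964739-133967991 on the minus strand (mm10). The promoter is shown because the low Hmgn2 in EC KO is the value that led to this family. It runs from 250 bases before to 50 after the start, at chr4:133967942-133968241 on the minus strand (RefSeq, GRCm38.p6). Capitals mark the motif CCAAT, the GC box GGGCGG and the TATA box TATAAA on either strand, here and in the other promoters.
Hmgn2 promoter: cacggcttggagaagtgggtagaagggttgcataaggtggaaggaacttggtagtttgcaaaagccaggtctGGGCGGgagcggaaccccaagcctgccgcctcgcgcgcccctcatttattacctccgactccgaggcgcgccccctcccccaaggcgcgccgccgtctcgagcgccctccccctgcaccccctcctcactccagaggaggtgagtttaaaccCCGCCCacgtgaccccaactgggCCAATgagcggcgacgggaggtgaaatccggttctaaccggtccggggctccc
It holds 1 CCAAT, 2 GC boxes and no TATAAA.

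In Spred1 wt, Hmgn2 read 514, 448, 503, 475 and 437 CPM. In HSC wt it read 421, 435, 490, 485 and 494 CPM, and in EC KO 229, 255, 256, 234 and 232 CPM. The EC KO libraries lie below every library of either wild-type group, and below all 21 libraries outside EC KO. The log2 difference was -0.98 (SE 0.0668) against Spred1 wt and -0.95 (SE 0.0667) against HSC wt, both against the same EC KO libraries and both used to choose the gene. As background, 7.96% of the 13379 genes were called in EC KO against Spred1 wt and 11.3% against HSC wt, and 1.09% of genes had all EC KO libraries below the other 21. The first of these shares rests on single libraries: 483 genes were called without EC KO 3, 584 without Spred1 wt 5, 628 without EC KO 4 and 1880 without EC KO 5, against 1065 with all. Against HSC wt 1507 genes were called, and between 744 and 920 without EC KO 3, EC KO 4, HSC wt 1 or HSC wt 2.

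In the knockouts that the choice of members did not use, Hmgn2 was not called. Their controls are the wild-type libraries that were part of that choice, so these tests are not independent of it. Hmgn2 read 440 to 531 CPM in global KO (median 471, n = 6), within 0.0070 log2 of Spred1 wt (SE 0.0633, 95% interval -0.12 to 0.14, edgeR adjusted p = 0.9988). In HSC KO it read 488, 495, 474, 552 and 539 CPM, and 3 of 5 libraries lay above every HSC wt library. The log2 difference from HSC wt was 0.13 (SE 0.0661, 95% interval -0.0030 to 0.27), with an unadjusted edgeR p of 0.05481 and an edgeR adjusted p of 0.9993. Both knockout groups overlap their control.

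The closest relative, Hmgn1 (chr16:96121588-96127725, minus strand), which binds nucleosomes in the same way, lay in the opposite direction in EC KO. It read 186, 188, 204, 205 and 176 CPM there, against 160, 155, 154, 125 and 132 in Spred1 wt and 138, 138, 141, 141 and 168 in HSC wt. Every EC KO library lies above every wild-type library, and above the highest of the other 21, at 174 CPM. The log2 difference was 0.40 (SE 0.0732) from Spred1 wt and 0.40 from HSC wt. Per length, the ratio of Hmgn2 to Hmgn1 was 1.20 ± 0.081 (SD, n = 5) in EC KO with a range of 1.08 to 1.29, and 2.54 to 3.68 in the libraries of the other groups. The same libraries chose Hmgn2, so this ratio is a description.

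**Figure D2:**
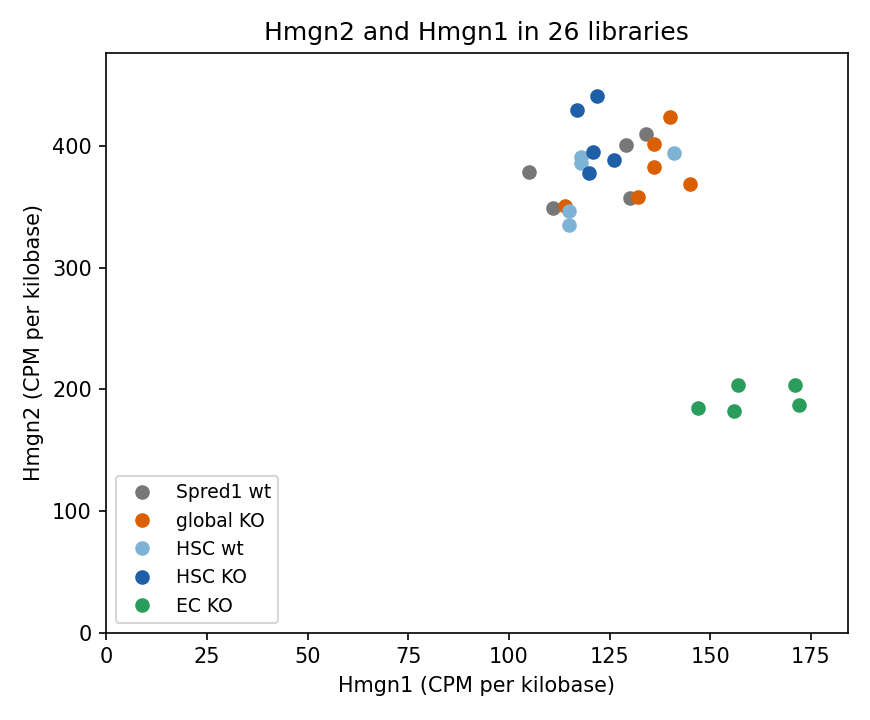
Hmgn2 against Hmgn1, both in CPM per kilobase, with 1 point per library coloured by group. The 5 EC KO libraries sit apart at a ratio of 1.08 to 1.29, and the 21 others at 2.54 to 3.68.

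Hmgn3 (chr9:83109942-83146607, minus strand) and Hmgn5 (chrX:109004537-109013380, minus strand) code for less abundant nucleosome-binding proteins, and HMGN5 has a long acidic tail. Hmgn3 read 20.3, 19.7, 32.0, 29.8 and 32.1 CPM in EC KO, 17.3, 18, 20.1, 20.1 and 23.2 in Spred1 wt and 13.7, 15.6, 16.5, 15.3 and 16.4 in HSC wt. EC KO overlaps Spred1 wt through its first pair of libraries and does not overlap HSC wt, and HSC wt lies below Spred1 wt without overlap, as did 1.1% of all genes. Hmgn5 read 129, 133, 140, 149 and 113 CPM in EC KO, above the 95.6 to 109 of HSC wt and overlapping the 84.9 to 124 of Spred1 wt. The log2 difference of EC KO from Spred1 wt was 0.44 (SE 0.156) for Hmgn3 and 0.35 (SE 0.119) for Hmgn5.

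Among the HMGB genes, Hmgb2 (chr8:57511843-57515999, plus strand) codes for the HMG box protein most tied to dividing cells. Its promoter is shown, at chr8:57511593-57511892 on the plus strand, because it holds 4 CCAAT, the most among the 8 members with a RefSeq promoter. The Hmgn2 promoter holds 1. The end of the Hmgb2 stretch was not found in a GENCODE M21 transcript of its gene, while the ends of the other members' promoters were found in theirs.
Hmgb2 promoter: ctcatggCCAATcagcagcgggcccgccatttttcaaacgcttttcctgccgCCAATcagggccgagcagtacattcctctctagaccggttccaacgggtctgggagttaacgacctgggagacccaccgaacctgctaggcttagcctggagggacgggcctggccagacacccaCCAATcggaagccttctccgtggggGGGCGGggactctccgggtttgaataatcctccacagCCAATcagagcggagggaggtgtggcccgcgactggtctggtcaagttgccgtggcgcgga
Hmgb2 read 586, 639, 782, 759 and 594 CPM in EC KO, against 542, 496, 520, 559 and 529 in Spred1 wt and 428, 438, 527, 546 and 564 in HSC wt. Its EC KO libraries lie above all of the other 21, the highest of which is at 565 CPM. The spread within EC KO is large, with EC KO 3 and 4 well above the rest. The log2 difference was 0.34 (SE 0.0817) from Spred1 wt and 0.43 from HSC wt. Of the 9 members, 2 (Hmgb2 and Hmgn1) had every EC KO library above the other 21 and 1 (Hmgn2) had every one below, beside 0.441% and 1.09% of all genes.

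Hmgb1 (chr5:149046702-149053057, minus strand), the founding HMG box protein and alarm signal, read 578, 528, 669, 531 and 521 CPM in EC KO and 560 to 659 CPM in Spred1 wt, so the groups overlap. Its log2 difference was -0.12 (SE 0.0632) in EC KO against Spred1 wt. Hmgb3 (chrX:71555917-71560673, plus strand), an HMG box protein of haematopoietic progenitors, read 79.6 to 96.1 CPM in EC KO and 65.3 to 82.6 in Spred1 wt. With the libraries of HSC wt, HSC KO and EC KO pooled, both X-linked members overlapped between those with and without Xist. Hmgb3 had a median of 90 CPM in the 7 with Xist and 86.5 in the 8 without, and Hmgn5 112 and 111 CPM. The groups were not compared singly by Xist.

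Hmga1 (chr17:27556574-27563672, plus strand), the AT-hook protein that is the more abundant of the pair here, showed overlap of EC KO with both wild-type groups, at 133 to 178 CPM beside 134 to 192 in Spred1 wt and 123 to 165 in HSC wt. Taken over the 9 genes, 7 were higher and 2 lower in EC KO than in Spred1 wt, with a median log2 difference of 0.34 (0.021 over all genes). Without overlap between the groups, 3 members were higher (Hmga2, Hmgb2, Hmgn1) and 1 lower (Hmgn2), where 2.29% of all genes were higher and 3.26% lower without overlap. Against HSC wt these were 4 higher (Hmgb2, Hmgn1, Hmgn3, Hmgn5) and 1 lower (Hmgn2), beside 4.38% and 5.86% of all genes. Kit was called lower in EC KO against Spred1 wt (edgeR adjusted p = 0.004473) and against HSC wt (edgeR adjusted p = 0.001617). Of the 8 mast cell and basophil genes given above, 3 were higher and 5 lower against either wild-type group, with 0 called. The 8 macrophage and monocyte genes, none at 0, had a summed median of 207 CPM in EC KO (range 85.1 to 280). It was 122 in HSC wt (range 98.2 to 140) and 173 in Spred1 wt (range 135 to 273). Of these 8, 5 were higher and 3 lower in EC KO than in Spred1 wt, with 0 called. Against HSC wt 6 were higher and 2 lower, and C1qa and Mrc1 were called (edgeR adjusted p = 0.0498 for both). The part of Kit and of the macrophage genes in the members' values was not tested.

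Hmga2 (chr10:120361275-120476935, minus strand) was low throughout. It read 8.66, 5.51, 3.75, 3.44 and 4.29 CPM in Spred1 wt and 16.1, 10.5, 7.66, 12 and 15.4 CPM in HSC wt. Of the HSC wt libraries, 4 of 5 lie above every Spred1 wt library, and HSC wt 3 lies below the highest, Spred1 wt 1. The log2 difference was 1.26 (SE 0.273) and chose the gene. Between the wild-type groups 0.0299% of all genes, 4 in number, were called, and 0 of the 9 members were among them. The number called was 21 without Spred1 wt 1, 2 without Spred1 wt 3 or 4, and 1 or 2 without any single HSC wt library. Over the 9 members, 2 were higher and 7 lower in HSC wt, with a median log2 difference of -0.033.

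The same mouse types can be compared in knockout libraries that the choice did not use. Hmga2 read 4.53 to 11.1 CPM in global KO (median 7.87, n = 6) and 17.1, 6.84, 14, 12.7 and 11.6 CPM in HSC KO. HSC KO 2 falls inside the range of global KO, and 4 of 5 HSC KO libraries lie above all of it. The log2 difference of HSC KO from global KO was 0.68 (SE 0.255, 95% interval 0.15 to 1.20), with an unadjusted p of 0.01357 and an edgeR adjusted p of 0.5098, and so did not pass. The kind of knockout and the breeding differ together between these groups and cannot be told apart. Poly(I:C) was given to HSC KO, and whether global KO received it is not stated, so its part cannot be told apart either. In this comparison 0.0673% of all genes were called, the number of genes being 9, with 17 called without global KO 2 and 5 without HSC KO 5. Of the 9 members, 0 were called by edgeR or DESeq2 and 4 had an unadjusted p under 0.05: Hmga2, Hmgb3, Hmgn1 and Hmgn3. Over all 13379 genes, 1068 had an unadjusted p under 0.05 in this comparison. Hmgn3 had a log2 difference of -0.43 (SE 0.152, edgeR adjusted p = 0.4534), Hmgb3 of 0.19 (SE 0.0820, edgeR adjusted p = 0.5699) and Hmgn1 of -0.15 (SE 0.0702, edgeR adjusted p = 0.6234). EC KO read 8.74 to 13.8 CPM of Hmga2, all above the Spred1 wt libraries and within the range of HSC wt. A covariate was added after the data were seen, the mean log2 level of the mast cell and basophil genes in each library, which is not their sum. It moved the log2 difference of Hmga2 to 0.38 in global KO against Spred1 wt (0.60 without it). In EC KO against Spred1 wt the log2 difference of Hmga2 moved to 0.68 (1.11 without it). With the same covariate it was 1.19 for HSC wt against Spred1 wt and 0.70 for HSC KO against global KO. Neutrophil genes, 8 of 8 of them higher in HSC KO than in global KO with 6 at an unadjusted p under 0.05 and 0 called by edgeR, had a summed median of 292 CPM in HSC KO (range 58.9 to 549) and 34.8 in global KO (range 16.2 to 188), with none at 0. In HSC wt that median was 657 CPM (range 124 to 809) and in Spred1 wt 130 (range 37.1 to 788). Of the macrophage and monocyte genes, 8 of 8 were lower in HSC KO than in global KO, with 2 at an unadjusted edgeR p under 0.05 and 0 called. In HSC wt 8 of 8 were lower than in Spred1 wt, with 3 at an unadjusted p under 0.05 and 0 called. B and plasma cell genes also had 3 of 6 there, beside 850 of all 13379 genes, with 0 called. The part of these cell type genes in the Hmga2 values was not tested.

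The regulator most linked to Hmga2 is the let-7 family, and its sites are shown because LIN28 and let-7 genes are among the lists compared further on. The mature let-7a carries the seed in capitals (bases 2 to 8), shared by 9 mature mouse let-7 miRNAs in RefSeq.
mmu-let-7a-5p: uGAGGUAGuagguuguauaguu
The Hmga2 3′ untranslated region was taken from the coding GENCODE M21 transcript in which this region is longest, at 3014 bases. It holds 4 matches to the reverse complement of the seed, CTACCTC, in capitals and in transcript order.
Hmga2 site 1: ccgacattcaatttCTACCTCagc
Hmga2 site 2: cccactcctcaataCTACCTCtga
Hmga2 site 3: tgatttgcaaggaaCTACCTCcac
Hmga2 site 4: atcaaaacacactaCTACCTCtta
They lie at chr10:120364222-120364245, chr10:120362985-120363008, chr10:120362547-120362570 and chr10:120361689-120361712, all on the minus strand. Taken from the longest coding transcript of each gene, the Hmga1 region of 1178 bases holds 1 match and the Hmgn2 region of 800 bases holds 0. A match is a stretch of letters, and binding was not measured.

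The Hmga2 promoter (chr10:120476420-120476719, minus strand) is shown as the least CpG-rich among the members with a RefSeq promoter, with 12 CpG.
Hmga2 promoter: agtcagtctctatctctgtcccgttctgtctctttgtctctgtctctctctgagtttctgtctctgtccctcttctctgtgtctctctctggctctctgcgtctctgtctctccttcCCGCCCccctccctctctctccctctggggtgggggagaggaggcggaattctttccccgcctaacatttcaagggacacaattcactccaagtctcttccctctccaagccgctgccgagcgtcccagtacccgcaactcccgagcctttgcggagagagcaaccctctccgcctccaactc
It holds 1 GC box, no CCAAT and no TATAAA, and the letters TTCCCGC, a form of the E2F site, overlap its GC box. RefSeq promoters matched 8 of the 9 genes in 10 windows. Searched on both strands, CCAAT is in 6 of these 10 windows (37.4% of 32851 promoters), GGGCGG in 8 (35.7%), TTTGAA, a form of the cell cycle homology region, in 2 (17.9%), TTCCCGC in 1 (4.6%) and TATAAA in 0 (13.6%). The Hmga1 windows overlap each other, and by gene CCAAT is in 6 of 8 and GGGCGG in 7 of 8. The 10 windows hold 12 to 45 CpG, where the median of all promoters is 7, and the motif shares were not matched for base content.

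**Figure D3:**
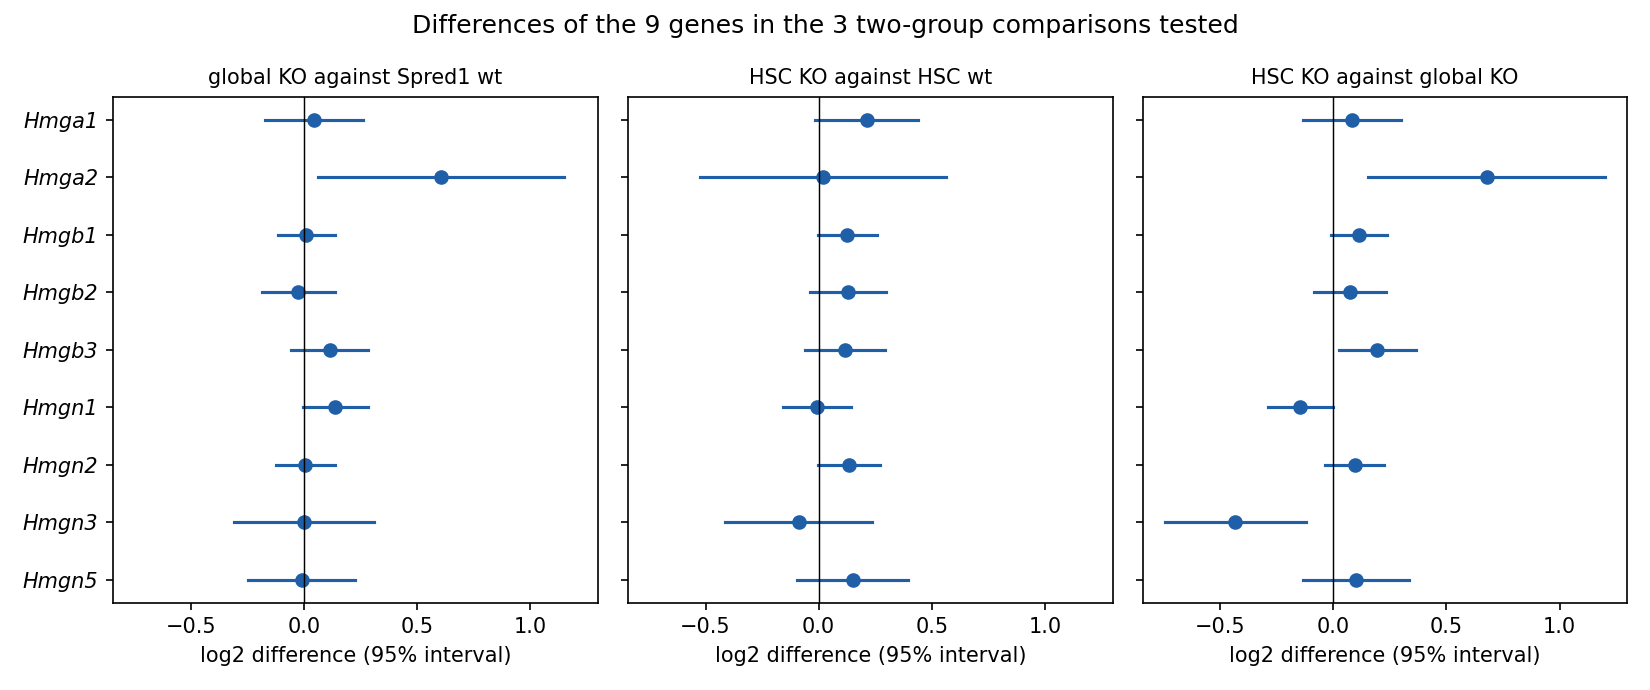
Log2 difference (point) and 95% interval (line) of the 9 genes in the comparisons that were tested. All intervals in HSC KO against HSC wt include 0, as do all but that of Hmga2 in global KO against Spred1 wt, and 0 members passed the adjusted threshold in any panel.

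Global loss of Spred1 gave no call among the members, in a comparison that shares the Spred1 wt libraries with that of EC KO. Of the 9 genes, 6 were higher and 3 lower in global KO than in Spred1 wt, with a median log2 difference of 0.012, equal to that of all genes (0.012). By edgeR and by DESeq2 0 of 9 were called, and 1 (Hmga2) had an unadjusted p under 0.05. Over all 13379 genes, 740 had an unadjusted p under 0.05 and 0.0747% were called by edgeR. Hmga2 had a log2 difference of 0.60 (SE 0.264, 95% interval 0.06 to 1.15, edgeR adjusted p = 0.8403), with 3 of 6 global KO libraries above all controls. The controls here are the Spred1 wt libraries whose low Hmga2 helped choose the gene. Hmgn1 read 136 to 174 CPM in global KO (median 163), 4 of 6 libraries lay above all controls, and the log2 difference was 0.14 (SE 0.0702, edgeR adjusted p = 0.9109). The number of genes called was 10 with all libraries, 25 without Spred1 wt 1, 24 without Spred1 wt 2 and 21 without global KO 2.

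Loss of Spred1 with Mx1-cre gave no call either. In HSC KO 7 of the 9 genes were higher and 2 lower than in HSC wt, with a median log2 difference of 0.13 beside 0.018 for all genes. By edgeR 0 of 9 were called, 0 had an unadjusted p under 0.05, and DESeq2 called 0, where 0.0224% of all genes were called by edgeR. Hmgb1 was the member whose groups did not overlap, at 641, 676, 660, 686 and 682 CPM in HSC KO and 603, 583, 623, 622 and 634 in HSC wt. Its log2 difference was 0.13 (SE 0.0632) with an unadjusted p of 0.05597 and an edgeR adjusted p of 0.9993, and 0.441% of all genes were higher without overlap in this comparison. Hmga2 had a log2 difference of 0.02 (SE 0.264, 95% interval -0.53 to 0.56). Its controls are the HSC wt libraries whose Hmga2 helped choose the gene. When the effect of HSC KO was subtracted from that of global KO, edgeR called 0.0149% of all genes and 0 of 9 members, with 0 at an unadjusted p under 0.05 and 0 called by DESeq2. The 2 genes called there became 7 without Spred1 wt 1 and 4 without global KO 2. For Hmga2 this contrast contains the difference between the wild-type groups that chose the gene, so its value of 0.59 (SE 0.373) is a description.

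Genes that work beside the high mobility group proteins were read from 7 lists with 109 genes in the table, 101 of them tested: other HMG box genes, linker histones, histone chaperones, HMGB1 receptors, the LIN28 and let-7 axis, and S phase and G2/M genes. In global KO against Spred1 wt 0 of 101 were called by edgeR (6 at an unadjusted p under 0.05), and in HSC KO against HSC wt 0 of 101 (0 at an unadjusted p under 0.05). Over all 13379 genes, 740 and 289 had an unadjusted p under 0.05 in these comparisons. For EC KO that number was 3360 against Spred1 wt and 3664 against HSC wt. In EC KO against Spred1 wt 12 rose and 2 fell, 13.9% of the 101 beside 7.96% of all genes (3.49% higher, 4.47% lower). Against HSC wt 6 rose and 3 fell, 8.91% of the 101 beside 11.3% of all genes. Among other HMG box genes 16 of 23 were higher in EC KO than in Spred1 wt, and Tfam, the HMG box protein that packs mitochondrial DNA, rose from 62.6 to 78.1 CPM (log2 difference 0.32, SE 0.0682, edgeR adjusted p = 0.00531). Hmgxb4 and Smarce1, a subunit of SWI/SNF remodellers, rose too, and Cic, a repressor downstream of ERK, fell from 251 to 194 CPM (log2 difference -0.37, SE 0.0758, edgeR adjusted p = 0.003644). Against HSC wt 13 of 23 were higher, Tfam, Smarce1 and Cic passed in the same directions, Hmgxb4 did not (log2 difference 0.09, edgeR adjusted p = 0.3407), and Hmgxb3 passed, at 59.6 CPM in EC KO and 71 in HSC wt (edgeR adjusted p = 0.02762). In global KO Hmgxb4 had a log2 difference of 0.12 (SE 0.0566), Tox4 of 0.09 (SE 0.0497) and Sox4, a progenitor transcription factor, of 0.28 (SE 0.167), none past the threshold.

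Linker histones, the chromatin proteins that HMGN proteins compete with, included 7 tested genes, of which 5 were higher in EC KO than in Spred1 wt. Hist1h1d rose from 2.94 CPM ± 1.36 (SD, n = 5) to 5.79 ± 1.36 (n = 5), by 0.98 log2 (SE 0.253, edgeR adjusted p = 0.01739). Against HSC wt, where it averaged 5.96 CPM, its log2 difference was -0.04 (edgeR adjusted p = 0.9312), 3 of 7 linker histones were higher, and 0 were called by edgeR (0 at an unadjusted p under 0.05). In global KO it had a log2 difference of 0.62 (SE 0.245, edgeR adjusted p = 0.7853), Hist1h1e one of 0.39 (SE 0.216) and Hist1h1a one of 0.37 (SE 0.271). These messages mostly lack poly(A) tails, and how the library was primed is not given, so their levels are uncertain. Of 16 histone chaperones, which carry histones to and from DNA, 14 were higher in EC KO than in Spred1 wt and 4 rose: Anp32a, Nap1l4, Asf1a and Supt16, a subunit of the FACT complex. Against HSC wt 13 of 16 were higher and 1 rose, Anp32a (edgeR adjusted p = 0.01288), while Nap1l4 (edgeR adjusted p = 0.2306), Asf1a (0.05745) and Supt16 (0.1171) did not pass. In global KO Nap1l4 had a log2 difference of 0.10 (SE 0.0492), Asf1a of 0.14 (SE 0.0881) and Hira of 0.11 (SE 0.0755), none past the threshold.

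Of the 9 genes on the HMGB1 receptor list, which HMGB1 outside the cell can signal through, 4 were higher in EC KO than in Spred1 wt and 0 were called by edgeR (1 at an unadjusted p under 0.05). Against HSC wt 7 of 9 were higher, and Cxcr4, the receptor that HMGB1 can engage together with CXCL12, rose from 84.2 to 124 CPM (log2 difference 0.56, SE 0.155, edgeR adjusted p = 0.02217). Tlr4 averaged 37.6 CPM in Spred1 wt and 26.5 CPM after global knockout (log2 difference -0.50, SE 0.154, edgeR adjusted p = 0.4398), Tlr2 had a log2 difference of -0.40 (SE 0.273) and Tlr9 of 0.48 (SE 0.536). On the LIN28 and let-7 axis 8 of 14 genes were tested. Lin28a averaged 2.95 CPM in Spred1 wt, 1.85 in global KO, 3.13 in HSC wt, 3.05 in HSC KO and 2.75 CPM in EC KO. Its log2 difference after global knockout was -0.66 (SE 0.380, edgeR adjusted p = 0.9174). Lin28b, the form known from fetal progenitors, averaged at most 0.127 CPM in any group. Dicer1, which processes let-7 precursors, fell from 186 CPM in Spred1 wt to 159 in EC KO (log2 difference -0.23, SE 0.0702, edgeR adjusted p = 0.04705), and also passed against HSC wt (edgeR adjusted p = 0.006288). In global KO Dis3l2, which degrades marked let-7 precursors, had a log2 difference of 0.15 (SE 0.0736) and Igf2bp3 of -0.58 (SE 0.561).

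Cell cycle genes are given because Hmgb2 is cell cycle linked. All 18 S phase genes tested were higher in EC KO than in Spred1 wt, with a median log2 difference of 0.22 (0.021 over all genes), and 3 rose: Mcm6, Tyms and Slbp. All 18 were higher than in HSC wt as well, where Tyms and Slbp passed and Mcm6 did not (edgeR adjusted p = 0.1055). Of 20 G2/M genes 15 were higher in EC KO than in Spred1 wt, with Cdk1 called (122 to 156 CPM, log2 difference 0.35, SE 0.103, edgeR adjusted p = 0.03685). Against HSC wt 15 of 20 were higher and 0 were called by edgeR (5 at an unadjusted p under 0.05), with Cdk1 at an edgeR adjusted p of 0.05066. Over all 13379 genes, 3664 had an unadjusted p under 0.05 against HSC wt. In global KO Mcm6 had a log2 difference of 0.15 (SE 0.0664), Mcm4 of 0.09 (SE 0.0626), Pcna of -0.10 (SE 0.0729), Aurkb of 0.17 (SE 0.0907), Bub1b of 0.14 (SE 0.0938) and Ccna2 of -0.12 (SE 0.0949), none past the threshold.

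Whether the Hmgn2 difference extends along chromosome 4 was read from the 23 tested genes that lie wholly within 500 kb of it. In EC KO against Spred1 wt 12 were higher and 11 lower, with a median log2 difference of 0.0091, and 6 rose and 3 fell. That is 39.1% called, beside 7.96% of all genes, and neighbours share a region, so they are not independent. The number called was 8 to 10 of 23 with any single EC KO or Spred1 wt library left out, while the number over all genes went from 483 without EC KO 3 to 1880 without EC KO 5, with 584 without Spred1 wt 5 and 628 without EC KO 4. The nearest, Dhdds, an enzyme of dolichol synthesis 1.07 kb away, read 76.2 CPM in Spred1 wt and 73.3 in EC KO (log2 difference -0.05, SE 0.0778, edgeR adjusted p = 0.7014). Lin28a, 35.3 kb away, had a log2 difference of -0.09 (SE 0.391) and Rps6ka1, 76.9 kb away, of 0.0091 (SE 0.0927). Aim1l, 100.5 kb away, rose by 0.96 log2 (SE 0.232, edgeR adjusted p = 0.01198), from a low level of 1.01 to 1.97 CPM. In EC KO against HSC wt 5 of the 23 rose and 3 fell, which is 34.8% called beside 11.3% of all genes. Ubxn11, Cep85 and Zdhhc18 rose and Sh3bgrl3, Sfn and Extl1 fell against both wild-type groups. In the other comparisons except those with EC KO, 0 of 23 were called by edgeR. Around Hmga1, 7.69% of 13 neighbours were called in EC KO against Spred1 wt and 30.8% against HSC wt. Around Hmgn1 it was 28.6% and 14.3% of 7 neighbours. The remaining members, with 3 to 6 neighbours each, had 0 called against Spred1 wt and at most 1 against HSC wt.

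**Figure D4:**
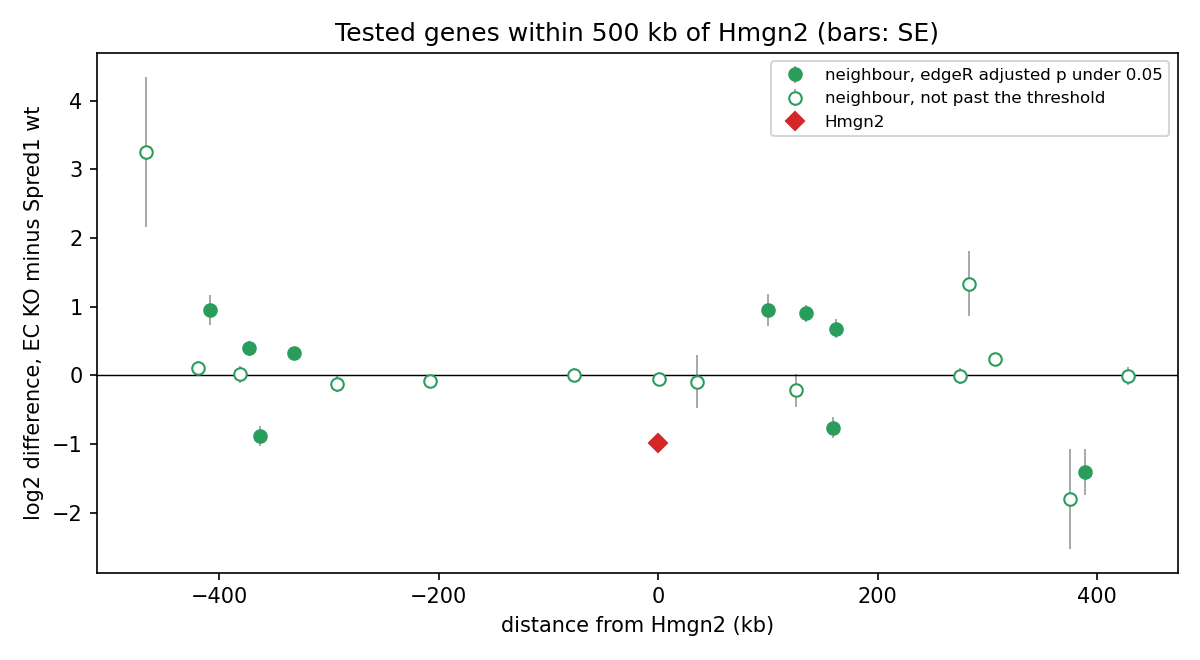
Log2 difference of EC KO from Spred1 wt (vertical axis, bars are SE) of the 23 tested genes within 500 kb of Hmgn2, by distance in kb (horizontal axis). Filled points passed the threshold, and they lie on both sides of 0. Hmgn2 (diamond) is at -0.98, and the 3 nearest neighbours lie between -0.09 and 0.0091.

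The counts of Hmgn2 carry a technical limit. Of the 50-base windows of its longest coding transcript, 67.1% (816 of 1216) also occur in transcripts of 18 other genes, of which 0 have a row in the count table. The share was 69.1% for Hmga1, 40.9% for Hmgb1, 34.2% for Hmgb3, 21.9% for Hmgb2, 18.6% for Hmgn5 and at most 6.54% for Hmgn1, Hmga2 and Hmgn3. Reads in shared windows can be lost or assigned elsewhere depending on the counting settings, and their part in the EC KO value was not tested.

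Across the 26 libraries, after group means were subtracted, the gene most like Hmgn2 was Ufc1 (Pearson r = 0.848), followed by Mcm5 (0.812) and Rnf7 (0.805). For Hmga2 these were Rhobtb3 (r = 0.856), Fam228b (0.84) and Nemp2 (0.83), and for Hmgb2 Nuf2 (0.89), C1d (0.886) and Eloc (0.885). Among the 36 pairs of members the highest r was 0.643 for Hmga1 and Hmgn2, then 0.597 for Hmgb1 and Hmgb2, and the lowest was -0.395 for Hmga1 and Hmga2. These are descriptions over libraries that share depth and composition.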

How the data were processed

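The deposited table holds read counts per gene and library, whole numbers that the authors did not normalise. Per the submitters' processing notes, the tools included edgeR 3.28.1, HTSeq 0.6.0, STAR 2.6.0 and bcl2fastq 2.18.0.12, and mm10 was the genome build. The annotation, read length and strand setting of counting are not given in the sources used here, so reads from near-identical copies or overlapping genes may be split or lost. All 26 columns matched a library, 0 pairs of columns were identical, and total counts lay between 14816071 and 26714325.

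Levels are CPM on TMM-scaled library sizes, or CPM per kilobase of the length listed in the table (RPKM). After filterByExpr with a minimum count of 10, 13379 of 24091 genes were fitted in R 4.3.3 with edgeR 4.0.16 (glmQLFit, robust), with group means of all 26 libraries and 21 residual degrees of freedom. Comparisons are two-sided quasi-likelihood contrasts with Benjamini-Hochberg adjustment over all 13379 genes, called under 0.05. Standard errors and 95% intervals come from the same fit. The scripts were tested on simulated data.

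The members, the companion lists and the tests were chosen with earlier results of these data known. EC KO against either wild-type group, and HSC wt against Spred1 wt, had chosen the members and are therefore described without a test, as is Hmga2 in the difference of effects, which contains the last of these. The wild-type libraries of that choice are also the controls of global KO and HSC KO, so those tests of Hmgn2 and Hmga2 are not independent of it. All members are named. Each companion list gives the genes that passed in a tested comparison, filled up to 3 by the smallest p in global KO against Spred1 wt; genes of these lists that passed in EC KO against either wild-type group are named as well, a choice made with their values in view. Likeness is Pearson's r of log2 CPM (prior count 2) after subtracting group means, and the 3 most similar genes are named for each of Hmgn2, Hmga2 and Hmgb2. Alternatives were RLE normalisation, no filter, DESeq2 1.42.0, the compared groups only, an Xist covariate, each library left out and, chosen after seeing the data, a mast cell transcript covariate.

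Promoters and miRNAs are RefSeq sequences on GRCm38.p6, and transcripts are from GENCODE M21. In coordinates, 7 of 9 members match RefSeq at both ends. Figures were drawn with Python 3.11.15 and matplotlib 3.10.9.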

Additional observations from a re-analysis of the deposited data

Results flagged for a closer look

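In HSC wt, replicate 5 read 168 CPM of Hmgn1 while the other 4 libraries read 138 to 141 CPM, a gap of 0.889 of the group's range, above Dixon's critical value of 0.71 for 5 samples. It was the 1 value set apart among 45 sets of a member in a group, and chance sets apart about 1 group in 20.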

How the results depend on the processing

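Of 693 values of the members under alternatives in the tested comparisons, 646 kept their direction and their side of the threshold, 47 changed direction, 0 gained and 0 lost a call. All 432 values of the described comparisons moved by less than 1 SD. That SD is the largest of the group SDs of log2 CPM for the gene, which is a wide limit for Hmga2. Directions changed only for differences near 0. For Hmgn2 in global KO this was -0.0033 with the compared groups only, -0.0026 by DESeq2 and -0.0027 with RLE. With the mast cell covariate it was 0.034 for Hmgn5 in global KO, -0.10 for Hmga2 in HSC KO against HSC wt and 0.013 for Hmgb3 in the difference of effects. With the Xist covariate it was -0.0028 for Hmga2 in HSC KO against HSC wt and -0.017 for Hmga1 in HSC KO against global KO, and without the filter 0.0045 for Hmgb3 in the difference.

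Leaving out single libraries gave, in global KO against Spred1 wt, -0.041 to 0.13 for Hmga1, -0.026 to 0.030 for Hmgb1, -0.032 to 0.029 for Hmgn2, -0.11 to 0.060 for Hmgn3 and -0.11 to 0.065 for Hmgn5. It gave -0.12 to 0.17 for Hmga2 and -0.032 to 0.046 for Hmgn1 in HSC KO against HSC wt, and -0.054 to 0.044 for Hmgb3 and -0.015 to 0.16 for Hmgn3 in the difference of effects.

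The number of genes called was 10 in global KO against Spred1 wt, 4 with the compared groups only, 35 by DESeq2 and 8 to 25 with single libraries left out. In HSC KO against HSC wt it was 3, 5 by DESeq2 and 3 in every leave-one-out. In HSC KO against global KO it was 9, 42 by DESeq2, 20 with the mast cell covariate and 5 to 17 on leaving libraries out. In the difference of effects it was 2, 7 by DESeq2 and 2 to 7. In EC KO against Spred1 wt it was 1065, with 333 for the compared groups only, 2291 with the mast cell covariate, 636 with the Xist covariate and 483 to 1880 on leaving libraries out. In EC KO against HSC wt it was 1507, and 744 to 2089. In HSC wt against Spred1 wt it was 4, with 1 for the compared groups only, 32 by DESeq2, 47 with the mast cell covariate and 1 to 21. The cause of these changes was not tested. No paired analysis was possible because the libraries are numbered across the whole series and the groups share no replicate numbers. Depth limits Hmga2 most, with as few as 53 reads in a library.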
